A study of Mus musculus with 27 samples.

Results

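Nploc4, Vcp, Faf1, Nsfl1c, Ubb and Zfand2a, 6 genes of the NPL4-p97 machinery and of the ubiquitin stress response, were followed through RNA-seq data of mouse splenic B cells treated with disulfiram (DSF). They were chosen by gene symbol from the 54532 genes of the count files. Each symbol matched 1 gene, and all 6 passed the filter on low counts in every comparison. The B cells came from spleens of wild-type C57BL6 mice and were purified by negative selection, so that other cells were bound and removed. In the first experiment they were cultured for 3 h in 5 groups of 4 libraries. These were unstimulated B cells with vehicle, B cells given lipopolysaccharide (LPS) with vehicle or with 1 μM DSF, and B cells given IL-4+anti-CD40 with vehicle or with 1 μM DSF. LPS is a bacterial product that activates B cells without T cells, and IL-4 with an antibody against CD40 stands in for T cell help. The second experiment had 7 libraries, 1 for each of these conditions and 1 for each stimulus with 1 μM ibrutinib, an inhibitor of Bruton's tyrosine kinase. The paper describes the 4 samples of each group in its FPKM plots as biologically independent. The age and number of mice behind the libraries, and whether libraries with the same replicate number shared a mouse, are not given in the sources used here. The p-values therefore measure the spread between these libraries.

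NPL4, encoded by Nploc4, forms with UFD1 a cofactor that brings ubiquitin-tagged proteins to the ATPase p97, encoded by Vcp, which pulls them out of complexes or membranes so that the proteasome can degrade them. Other cofactors, such as FAF1 and p47 (Nsfl1c), bind the same ATPase. Ubb encodes a chain of ubiquitin units that is cut into free ubiquitin, and Zfand2a encodes AIRAP, an AN1 zinc finger protein of the proteasome that is known to be induced by arsenite and heat shock. DSF is an aldehyde dehydrogenase inhibitor used against alcohol dependence, and the copper complex of its metabolite is known to bind NPL4 and make it aggregate.

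The libraries of the first experiment held from 17804851 to 23632992 counts each, and those of the second from 16049295 to 24619776. The 6 B cell markers examined were expressed in every library, with 285 to 1271 FPKM for Cd79a. Cd3e, which defines T cells, was at 0.50 FPKM or less in every library, and the neutrophil marker Ly6g was at 0.13 FPKM or less. Other markers of these cells were present, with Trac at 0.61 to 5.87 FPKM, S100a8 at 2.67 to 17.6 FPKM and S100a9 at 6.15 to 36.7 FPKM. FPKM are fragment counts divided by gene length and by a scaling factor for each library, so that they can be compared between genes. In these files the factor was close to TMM, the scaling of the count test, and was not the library's total counts. The FPKM levels and overlaps given below therefore carry that scaling. The 5 myeloid markers summed to between 317 and 427 FPKM in unstimulated B cells and to between 79.2 and 145 FPKM in the 4 stimulated groups, with none of the 5 at 0 in any library and Lyz2 at 49.8 to 406 FPKM. Within groups, log2 expression correlated between libraries with r from 0.983 to 0.992, except in unstimulated B cells. There, libraries 1 and 2 (r = 0.993) and libraries 3 and 4 (r = 0.992) formed pairs, with r from 0.963 to 0.964 between the pairs. The vehicle libraries 3 and 4 of IL-4+anti-CD40 also stood apart from libraries 1 and 2 for the stress genes below. Of the values of the 6 members that rest on these libraries, several are given with and without them and the others only with them. Values of the gene lists below are given only with them.

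On mm10, Nploc4 (ENSMUSG00000039703) lies on chromosome 11 at 120380370-120437708 on the minus strand, and Ubb (ENSMUSG00000019505) on the same chromosome at 62551171-62553213 on the plus strand. Vcp (ENSMUSG00000028452) lies on chromosome 4 at 42979963-43000507 on the minus strand, and Faf1 (ENSMUSG00000010517) on chromosome 4 at 109676588-109963960 on the plus strand. Nsfl1c (ENSMUSG00000027455) is on chromosome 2 at 151494182-151511414, plus strand, and Zfand2a (ENSMUSG00000053581) on chromosome 5 at 139471211-139484549, minus strand. Copies of some members share their sequence, and how reads matching several places were counted is not given in the sources used here, so that Ubb and Vcp are uncertain to that extent. Of the 50-base stretches in Ubb transcripts 48.1% also occurred in transcripts of other genes, chiefly Gm1821. Gm1821 received between 1.05% and 1.51% as many counts as Ubb. Of those in Vcp transcripts 43.6% occurred elsewhere, chiefly in the X-linked Vcp-rs, which received between 17.2% and 26.5% as many counts as Vcp. Vcp also overlaps the opposite-strand gene 1700022I11Rik, which had between 2 and 33 counts. The shared portion was 11.4% in Nsfl1c, 0.406% in Zfand2a and 0 in Nploc4 and Faf1.

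The regions upstream of the members were searched for heat shock element units, the letters that heat shock factor 1 is known to bind. The RefSeq promoter windows (GRCm38.p6), each from 250 bases before to 50 bases after a gene's start, held 1 window for each member and 2 for Ubb. A pair of units was written as GAANNTTC or TTCNNGAA, each of which reads the same on both strands and can overlap the other by one unit. Nploc4, Vcp, Nsfl1c and Zfand2a had such a pair, and neither Faf1 nor either Ubb window did. GAANNTTC was in 7.86% and TTCNNGAA in 8.52% of the 32851 promoter windows of all genes, and both were in 1.32%. The share of windows with either pair, the rule used for the members, was not counted and is larger than each single share. In Nploc4 both pairs overlapped at 176 to 164 bases before the start, forming 3 alternating units in a row, an arrangement found in 0.603% of all windows. The pair of Vcp lay 60 to 53 bases before the start, that of Zfand2a 196 to 189 bases and that of Nsfl1c 234 to 227 bases. The stretches below, written 5′ to 3′ along each gene, show these matches in capitals with up to 40 bases on either side. They are chr11:120437824-120437916 on the minus strand for Nploc4, chr4:43000520-43000607 on the minus strand for Vcp, chr5:139484640-139484727 on the minus strand for Zfand2a and chr2:151493932-151493995 on the plus strand for Nsfl1c.
Nploc4: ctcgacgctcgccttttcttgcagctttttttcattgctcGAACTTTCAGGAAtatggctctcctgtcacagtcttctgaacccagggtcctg
Vcp: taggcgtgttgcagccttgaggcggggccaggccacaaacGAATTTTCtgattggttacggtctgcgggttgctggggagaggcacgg
Zfand2a: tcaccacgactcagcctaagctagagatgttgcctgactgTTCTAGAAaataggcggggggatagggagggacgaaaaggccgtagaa
Nsfl1c: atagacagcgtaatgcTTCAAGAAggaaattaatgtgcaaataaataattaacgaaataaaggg

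A match is a description of these letters and not evidence of a bound site. Of the other motifs searched on both strands, the antioxidant response core TGACNNNGC was in the Vcp window and in 1 of the 2 Ubb windows, against 12.4% of all windows. The metal response core TGCNCNC was in the windows of Nploc4, Vcp and Faf1 and in 1 Ubb window, but was also in 51% of all windows, and neither Nsfl1c nor Zfand2a had a match.

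With DSF, B cells stimulated with LPS had higher levels of 5 of the 6 genes, led by Zfand2a and Ubb, and none was lower (edgeR's quasi-likelihood test, 4 against 4 libraries, adjusted p under 0.05). Among all 14154 genes tested, 35.1% were higher and 36% lower by the same rule, with a median log2 fold change of 0.0019. In B cells stimulated with IL-4+anti-CD40, 4 of the 6 were higher with DSF and none lower, against 30.1% higher and 31.6% lower of 14275 genes, whose median was -0.015. Faf1 passed the test in neither stimulus. Separation of the groups was common. DSF and vehicle libraries did not overlap, in either direction, for 64.4% of all genes tested under LPS and 57.3% under IL-4+anti-CD40.

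**Figure D1:**
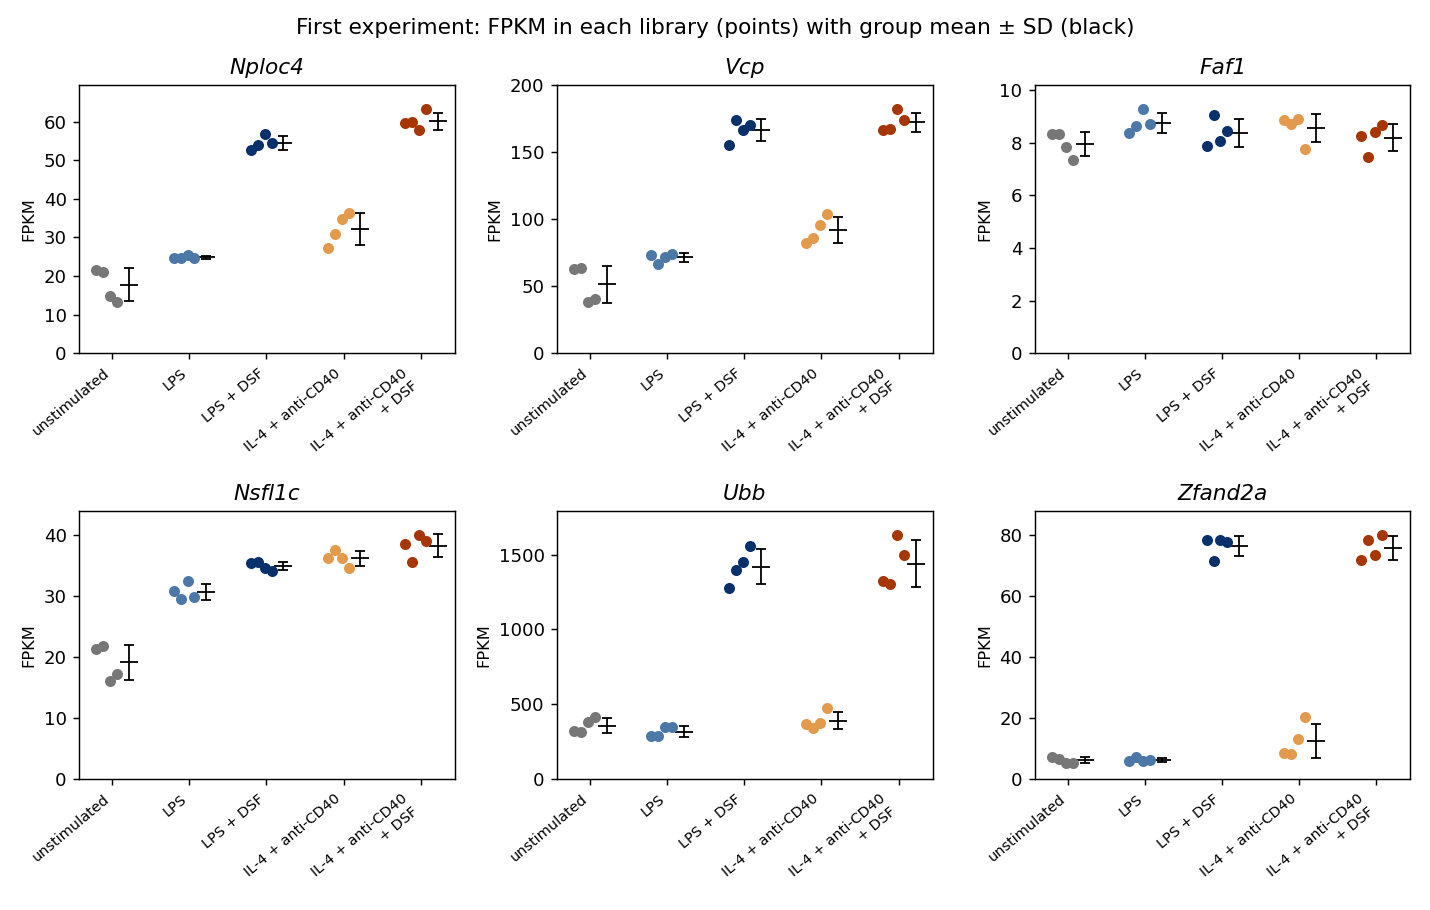
FPKM (vertical axes, linear from 0) of the 6 genes in each of the 20 libraries of the first experiment (points, by group on the horizontal axes), with the group mean ± SD in black (n = 4). The DSF groups of Nploc4, Vcp, Ubb and Zfand2a lie above every other group, Nsfl1c is higher in the stimulated groups than in unstimulated B cells, and the Faf1 groups overlap apart from LPS and unstimulated B cells.

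Zfand2a changed most. Its FPKM were 5.98, 7.32, 5.92 and 6.21 under LPS and vehicle, and 78.4, 71.6, 78.5 and 77.7 under LPS and DSF. The groups were far apart, and the fold change was 12.2 (log2 3.60 ± 0.058 SE, adjusted p = 7.51e-25), the 75th largest rise of the genes tested. Under IL-4+anti-CD40 and vehicle its FPKM were 8.51, 8.34, 13.0 and 20.3, and with DSF 71.8, 78.5, 73.4 and 80.1. These groups did not overlap either, but vehicle libraries 3 and 4 were well above libraries 1 and 2. The log2 fold change was 2.58 ± 0.24 (adjusted p = 5.27e-06). Without vehicle libraries 3 and 4 it was 3.16 (adjusted p = 2.86e-12), and without libraries 1 and 2 it was 2.17.

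Ubb was the most abundant of the 6 genes. It measured 288, 289, 348 and 346 FPKM under LPS and vehicle, and 1275, 1399.7, 1447 and 1557 FPKM under LPS and DSF. Under IL-4+anti-CD40 it measured 369, 340, 377 and 472 FPKM with vehicle, and 1326, 1300.4, 1629.9 and 1500.1 FPKM with DSF. All DSF libraries lay above all vehicle libraries in both stimuli, beside the shares of all genes without overlap given above. The log2 fold changes were 2.18 ± 0.063 under LPS (adjusted p = 6.10e-20) and 1.86 ± 0.11 under IL-4+anti-CD40 (adjusted p = 8.65e-07). Without the IL-4+anti-CD40 vehicle libraries 3 and 4 the latter was 2.01, and without libraries 1 and 2 it was 1.74. Gm1821, the copy that shares sequence with Ubb, had log2 fold changes of 2.24 and 1.82.

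Nploc4 and Vcp, the cofactor and its ATPase, both rose. Nploc4 measured 24.6, 24.6, 25.5 and 24.7 FPKM under LPS and vehicle and 52.6, 54.0, 56.8 and 54.4 FPKM under LPS and DSF. Vcp measured 73.7, 66.7, 71.8 and 74.3 FPKM without DSF and 155, 174, 166 and 171 FPKM with it. Neither gene's groups overlapped, and the log2 fold changes under LPS were 1.15 ± 0.039 for Nploc4 (adjusted p = 1.64e-18) and 1.24 ± 0.045 for Vcp (adjusted p = 4.86e-18). Under IL-4+anti-CD40, Nploc4 was at 27.1, 30.8, 34.7 and 36.4 FPKM with vehicle and at 59.5, 59.8, 57.9 and 63.2 FPKM with DSF. Vcp was at 82.4, 86.0, 96.0 and 104 FPKM with vehicle and at 167, 167, 182 and 174 FPKM with DSF. Again no DSF library overlapped a vehicle library, and the log2 fold changes were 0.88 ± 0.084 (adjusted p = 6.11e-06) and 0.88 ± 0.078 (adjusted p = 3.59e-06). Without vehicle libraries 3 and 4 they were 1.04 for Nploc4 and 1.03 for Vcp, and without libraries 1 and 2 they were 0.74 and 0.77. Vcp-rs, which shares sequence with Vcp, had log2 fold changes of 1.06 under LPS and 0.85 under IL-4+anti-CD40. Beside these values, the 6 B cell markers summed to 1589 to 1620 FPKM under LPS and 1128 to 1202 FPKM under LPS and DSF, and all 6 were lower. Under IL-4+anti-CD40 they summed to 1476 to 1711 FPKM without and 1238 to 1329 FPKM with DSF, with 4 lower and 1 higher. The myeloid markers summed to 81.3 to 95.0 FPKM under LPS and 79.2 to 86.0 FPKM under LPS and DSF, with 1 of 5 higher and 1 lower. They summed to 82.9 to 100 FPKM under IL-4+anti-CD40 and to 111 to 145 FPKM with DSF in addition, with 3 of 5 higher. The 6 T cell markers, of which Cd3e and Cd4 were at or near 0, summed to 1.78 to 2.50 FPKM under LPS and 4.35 to 6.22 FPKM under LPS and DSF, and to 1.58 to 2.45 and 4.01 to 4.92 FPKM under IL-4+anti-CD40 without and with DSF. Of these Trac was higher with DSF, by 1.95 under LPS and 1.32 under IL-4+anti-CD40. Cd8a, at 0.27 FPKM or less in every library, was lower under LPS, with a log2 fold change of -1.41. These were the 2 T cell markers tested under LPS, and Trac was the only 1 tested under IL-4+anti-CD40. The 4 neutrophil markers summed to 12.8 to 13.6 and 16.1 to 19.6 FPKM under LPS, and to 9.34 to 13.4 and 14.8 to 17.96 FPKM under IL-4+anti-CD40, without and with DSF. The 4 erythroid markers summed to 0.70 to 1.36 and 1.72 to 1.91 FPKM under LPS, and to 0.56 to 0.94 and 1.16 to 2.74 FPKM under IL-4+anti-CD40, without and with DSF, and Hba-a1 was higher with DSF under both (1.54 and 1.62). The 3 NK markers summed to 0.60 FPKM or less in stimulated B cells. Their part in the members' changes was not tested, and in bulk samples fewer cells of a type and less RNA per cell cannot be told apart.

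Nsfl1c and Faf1, the other p97 cofactors among the 6, had the smallest log2 fold changes. Nsfl1c encodes p47, which works with p97 in membrane fusion. It was at 31.0, 29.6, 32.4 and 29.9 FPKM under LPS and at 35.4, 35.7, 34.6 and 34.2 FPKM under LPS and DSF, which did not overlap, and its log2 fold change of 0.20 ± 0.041 passed the test (adjusted p = 9.40e-05) but was -0.0034 when scaled by total counts, which put the median of all genes at -0.21. Under IL-4+anti-CD40 the groups overlapped, at 34.7 to 37.6 and 35.7 to 40.1 FPKM, and the log2 fold change was 0.061 ± 0.050 (adjusted p = 0.314), or -0.089 with total counts. Faf1, a cofactor with ubiquitin-binding domains, was at 8.37 to 9.27 FPKM under LPS and 7.87 to 9.07 FPKM under LPS and DSF. Its log2 fold change was -0.044 ± 0.057 (adjusted p = 0.499), and under IL-4+anti-CD40 it was -0.083 ± 0.069 (adjusted p = 0.314). Scaled by total counts it passed the test as lower in both, at -0.25 and -0.23.

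**Figure D2:**
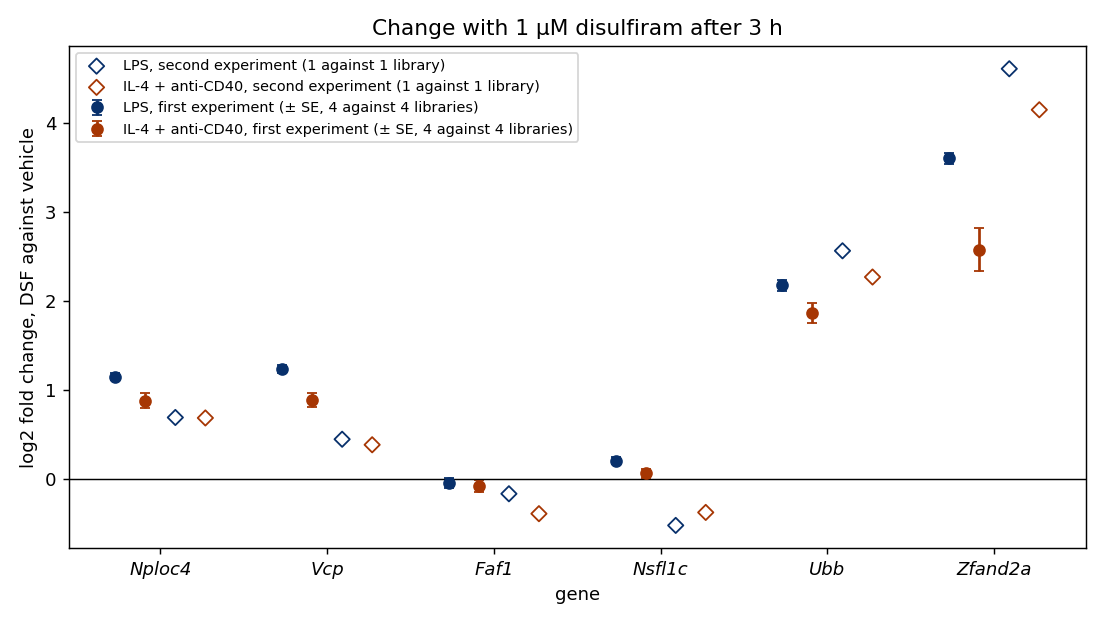
Log2 fold change with 1 μM DSF against vehicle (vertical axis) for each of the 6 genes (horizontal axis). Filled circles with SE are the first experiment (4 against 4 libraries) and open diamonds the second (1 against 1 library, no error). Zfand2a and Ubb rise most in all 4 comparisons, Nploc4 and Vcp less, and Nsfl1c lies above 0 in the first experiment and below 0 in the second.

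The question of whether DSF acted alike under both stimuli was put to the interaction term, coded as the log2 fold change under IL-4+anti-CD40 minus that under LPS over 16 libraries. It was past the threshold for Zfand2a and Vcp, with the smaller rise under IL-4+anti-CD40, against 6.96% of 15130 genes with a positive and 7.92% with a negative interaction. For Zfand2a it was -1.02 ± 0.26 (adjusted p = 0.0106), and for Vcp -0.35 ± 0.093 (adjusted p = 0.0148). Both values rest in part on the IL-4+anti-CD40 vehicle libraries 3 and 4. Without them the interaction was -0.44 for Zfand2a (adjusted p = 0.00159) and -0.21 for Vcp (adjusted p = 0.0534), and without libraries 1 and 2 it was -1.43 and -0.47. With all 20 libraries in one fit, that of Vcp was -0.28 (adjusted p = 0.425). The interaction was -0.27 ± 0.095 for Nploc4 (adjusted p = 0.0645), -0.31 ± 0.14 for Ubb (adjusted p = 0.142), -0.14 for Nsfl1c and -0.034 for Faf1. Mean FPKM of Zfand2a were 76.6 ± 3.3 under LPS and DSF and 75.9 ± 4.0 under IL-4+anti-CD40 and DSF (SD, n = 4), while with vehicle they were 6.36 ± 0.66 and 12.5 ± 5.6. For Vcp they were 167 ± 8.3 and 173 ± 7.2 with DSF, and 71.6 ± 3.4 and 92.1 ± 9.9 with vehicle.

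Stimulation alone, compared with unstimulated B cells, gave higher levels of 4 of the 6 genes with either stimulus and lower levels of none. These were Nploc4, Vcp and Nsfl1c with both, Faf1 under LPS and Zfand2a under IL-4+anti-CD40. Of all genes 29.6% were higher and 33.3% lower under LPS, and 30.4% higher and 32.1% lower under IL-4+anti-CD40. The 2 comparisons share their unstimulated libraries. Stimulated and unstimulated libraries did not overlap, in either direction, for 60.9% of all genes under LPS and 60.0% under IL-4+anti-CD40. Nsfl1c was at 21.4, 21.8, 16.1 and 17.3 FPKM in unstimulated B cells, all below every stimulated library. Its log2 fold changes were 0.70 ± 0.097 under LPS (adjusted p = 0.000295) and 0.94 ± 0.10 under IL-4+anti-CD40 (adjusted p = 5.83e-05). Without unstimulated libraries 3 and 4 they were 0.54 and 0.75, and without libraries 1 and 2 they were 0.91 and 1.14. Nploc4 was at 21.6, 21.1, 14.9 and 13.3 FPKM in unstimulated B cells, below all stimulated libraries, with log2 fold changes of 0.50 ± 0.14 (adjusted p = 0.0138) and 0.89 ± 0.16 (adjusted p = 0.00131). Vcp was at 63.3, 63.5, 38.2 and 40.7 FPKM, with log2 fold changes of 0.50 ± 0.17 (adjusted p = 0.0279) and 0.87 ± 0.18 (adjusted p = 0.00229). For both genes the unstimulated libraries fell into the pairs named above. Without unstimulated libraries 3 and 4 the LPS change was 0.24 for Nploc4 and 0.20 for Vcp, and without libraries 1 and 2 it was 0.85 and 0.89. The change under IL-4+anti-CD40 was 0.60 and 0.55 without unstimulated libraries 3 and 4, and 1.22 and 1.25 without libraries 1 and 2. Scaled by total counts, the LPS calls of Nploc4 (0.27, adjusted p = 0.170) and Vcp (0.26, adjusted p = 0.238) were lost. The LPS call of Vcp was lost when unstimulated library 4 or any 1 LPS library other than library 2 was left out, with adjusted p from 0.0557 to 0.0663.

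Zfand2a was at 7.29, 6.63, 5.39 and 5.25 FPKM in unstimulated B cells. Under LPS it overlapped these values (log2 fold change 0.067 ± 0.12, adjusted p = 0.651, or -0.17 with total counts). Without unstimulated libraries 1 and 2 it was higher under LPS (0.29, adjusted p = 0.0107), and without libraries 3 and 4 its value was -0.10. Under IL-4+anti-CD40 it was higher by 1.05 ± 0.28 (adjusted p = 0.00859). The adjusted p was 0.0615 without unstimulated libraries 3 and 4, and without the IL-4+anti-CD40 libraries 3 and 4 the log2 fold change was 0.50 (adjusted p = 0.0310). Ubb, at 319, 312, 383 and 414 FPKM in unstimulated B cells, passed the test with neither stimulus (log2 fold changes -0.16 and 0.14, adjusted p = 0.295 and 0.385). Without unstimulated libraries 1 and 2 its LPS value was -0.30 (adjusted p = 0.000626), and with total counts it was -0.38 (adjusted p = 0.0157), lower in both. Without unstimulated libraries 3 and 4 it was 0.036. In each group of the first experiment Ubb was lower in libraries 1 and 2 than in libraries 3 and 4. Under LPS these were at 288 and 289 against 348 and 346 FPKM. Leaving out 1 pair in the unstimulated group alone therefore also carries that split. Faf1, at 7.35 to 8.33 FPKM without stimulus, was higher under LPS by 0.15 ± 0.057 (adjusted p = 0.0420), but its value was -0.077 with total counts, and with DESeq2 it missed the threshold (adjusted p = 0.0564). In edgeR's test the call was also lost without a count filter (adjusted p = 0.161). Leaving out unstimulated library 3 or 4, or LPS library 2, 3 or 4, lost it too, with adjusted p from 0.067 to 0.107. Without both unstimulated libraries 3 and 4 the value of Faf1 was 0.098 (adjusted p = 0.152). Under IL-4+anti-CD40 its value was 0.13 (adjusted p = 0.158). Beside all comparisons with unstimulated B cells stand the myeloid marker sums given above and sums of 10.3 to 55.5 FPKM for neutrophil, 2.13 to 5.46 for T cell, 2.04 to 13.4 for erythroid and 1.09 to 1.74 for NK markers in unstimulated B cells. Their part was not tested.

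Set against unstimulated B cells, 5 of the 6 genes were higher under LPS and DSF and 5 under IL-4+anti-CD40 and DSF, Faf1 being the exception in both. The background was 34.3% higher and 37.3% lower under LPS and DSF, and 33.4% and 35.3% under IL-4+anti-CD40 and DSF. The log2 fold changes under LPS and DSF were 3.65 for Zfand2a, 2.00 for Ubb, 1.70 for Vcp, 1.63 for Nploc4 and 0.87 for Nsfl1c. Under IL-4+anti-CD40 and DSF they were 3.64, 2.02, 1.76, 1.77 and 1.01 in the same order, with adjusted p of 5.42e-05 or less for each of these genes. Without unstimulated libraries 3 and 4 those under LPS and DSF were 1.32 for Nploc4 and 1.37 for Vcp, and without libraries 1 and 2 they were 1.94 and 2.07. Those under IL-4+anti-CD40 and DSF were 1.48 and 1.43, and 2.09 and 2.13. Compared with IL-4+anti-CD40, LPS with vehicle gave lower levels of 4 genes and higher levels of none, against 17.3% lower and 22.3% higher of 14078 genes. The differences were -0.93 for Zfand2a (adjusted p = 0.0112), -0.33 for Nploc4 (adjusted p = 0.00760), -0.32 for Vcp (adjusted p = 0.00617) and -0.19 for Nsfl1c (adjusted p = 0.00663). Without the IL-4+anti-CD40 libraries 3 and 4 those of Zfand2a, Nploc4 and Vcp were -0.34, -0.16 and -0.17. The order of mean levels in every group of the first experiment placed Ubb first and Vcp second. In vehicle groups Zfand2a was at the bottom under LPS and without stimulus, and with DSF it came after Vcp and above Nploc4, with no overlap of libraries. Under IL-4+anti-CD40 and vehicle the libraries of Zfand2a overlapped those of Faf1, and those of Nploc4 overlapped those of Nsfl1c, as the latter pair did without stimulus.

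The second experiment, with 1 library for each condition and therefore no replicate check, held the same 2 genes at the top. Zfand2a had 459 counts under LPS and 10488 under LPS and DSF, and 551 and 7556 under IL-4+anti-CD40 without and with DSF. Its log2 ratios were 4.61 (95% counting interval 4.48 to 4.76) and 4.15 (4.03 to 4.28), from an exact binomial interval that covers counting error only. Ubb was at 334 and 1970 FPKM under LPS without and with DSF and at 368 and 1761 FPKM under IL-4+anti-CD40, with log2 ratios of 2.57 and 2.27. These 2 genes were past 2-fold under each stimulus and no member was 2-fold lower, against 20.3% of 14275 genes 2-fold higher and 19.5% lower under LPS and 21.9% and 20.3% under IL-4+anti-CD40.

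Nploc4 and Vcp were also higher with DSF in the second experiment, by less than 2-fold. Nploc4 was at 32.5 and 52.3 FPKM under LPS and at 33.1 and 52.8 FPKM under IL-4+anti-CD40, with a log2 ratio of 0.69 in each. Vcp was at 96.8 and 131 FPKM and at 96.9 and 126 FPKM, with log2 ratios of 0.45 and 0.38, beside 1.24 and 0.88 in the first experiment. Nsfl1c was lower with DSF, at 29.5 and 20.4 FPKM under LPS (log2 ratio -0.52, counting interval -0.62 to -0.43) and at 33.8 and 25.8 FPKM under IL-4+anti-CD40 (-0.38, interval -0.47 to -0.28). Faf1 had log2 ratios of -0.17 and -0.39. Against the unstimulated library, vehicle libraries had log2 ratios of 0.62 and 0.63 for Nploc4, 0.74 and 0.73 for Vcp, 0.53 and 0.72 for Nsfl1c, 0.13 and 0.12 for Faf1, -0.019 and 0.11 for Ubb and -0.050 and 0.20 for Zfand2a, in the order LPS and IL-4+anti-CD40. Under the other scalings tried, the ratio of Nsfl1c stayed between -0.83 and -0.37 under LPS and between -0.62 and -0.23 under IL-4+anti-CD40. Beside these values, markers of other cells were higher with DSF in the second experiment. Their median log2 ratios under LPS and IL-4+anti-CD40 were 1.05 and 1.14 over 3 T cell markers, 0.91 and 1.02 over 5 myeloid, 2.21 and 3.41 over 2 neutrophil and 0.99 and 1.27 over 4 erythroid markers, and -0.29 and -0.35 over the 6 B cell markers. Their part was not tested, nor was the difference between the experiments, whose files were normalized separately.

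Ibrutinib was given at the same dose and time. No member reached 2-fold in either direction, against 2.81% of genes 2-fold higher and 2.47% lower under LPS, and 2.23% and 1.69% under IL-4+anti-CD40. Zfand2a was at 8.54 FPKM under LPS and ibrutinib and 9.61 FPKM under IL-4+anti-CD40 and ibrutinib, beside 178 and 155 FPKM with DSF. The log2 ratios to vehicle were between -0.17 (Nsfl1c) and 0.25 (Zfand2a) under LPS, and between -0.19 (Nsfl1c) and 0.14 (Zfand2a) under IL-4+anti-CD40. Between the compounds, DSF against ibrutinib gave log2 ratios of 4.37 and 4.01 for Zfand2a, 2.36 and 2.34 for Ubb, 0.83 and 0.73 for Nploc4, and 0.44 and 0.45 for Vcp, under LPS and IL-4+anti-CD40. These are single libraries, and no test was made.

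**Figure D3:**
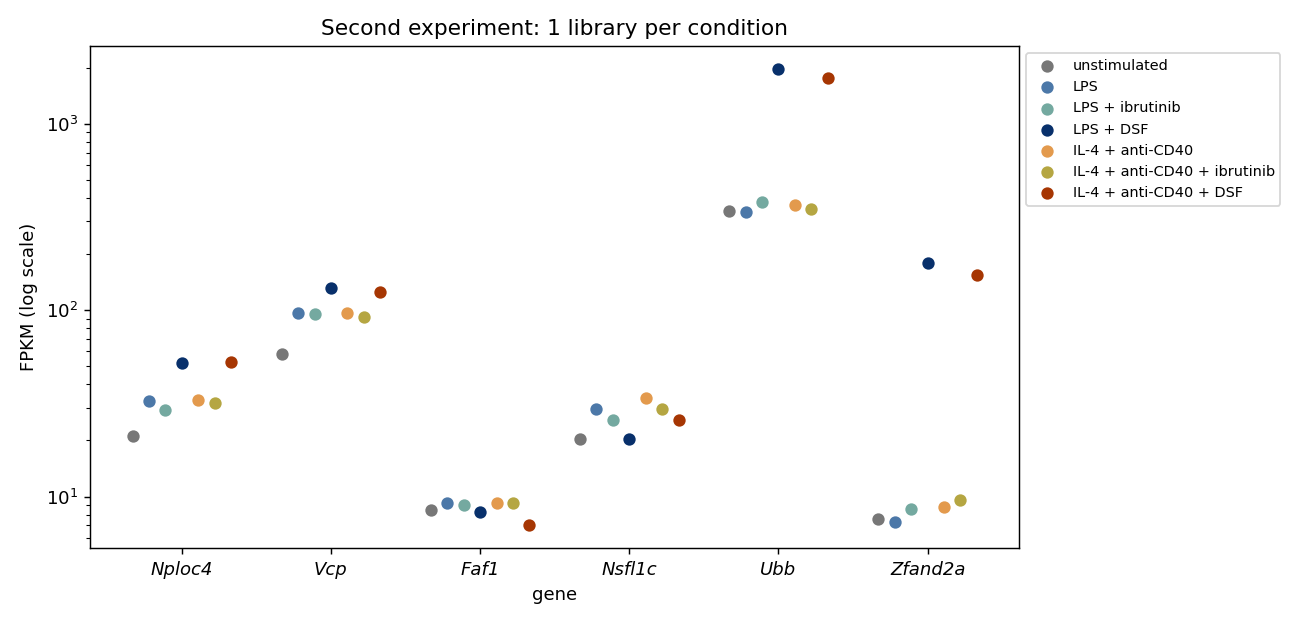
FPKM (vertical axis, log scale) of the 6 genes (horizontal axis) in the 7 libraries of the second experiment, 1 per condition, coloured by condition. The DSF libraries stand apart for Zfand2a (155 and 178 FPKM against 7.29 to 9.61) and Ubb (1761 and 1970 against 334 to 379), and the ibrutinib libraries lie beside vehicle.

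Among the partners of NPL4 and p97, all 3 core genes rose with DSF in the first experiment, with a median log2 fold change of 1.15 under LPS and 0.88 under IL-4+anti-CD40. Ufd1, which completes the core, rose by 0.33 ± 0.048 (adjusted p = 1.51e-06) and 0.31 ± 0.061 (adjusted p = 0.000936). Of 23 UBX and other p97 cofactors tested, 14 were higher and 6 lower under LPS (median 0.20), and 11 higher and 7 lower under IL-4+anti-CD40 (median 0.14). Ubxn4, an ER membrane protein that recruits p97, rose most, by 2.21 ± 0.042 and 1.66 ± 0.17. Nub1, which binds NEDD8, followed at 0.98 and 0.91. Ubxn2b fell by 1.32 and 0.96 on the log2 scale, and Ubxn11 fell by 0.82 and 0.77. The split of the cofactors depended on the scaling, at 10 higher and 9 lower under LPS and 9 and 9 under IL-4+anti-CD40 when scaled by total counts, with medians of -0.0034 and -0.010. In the second experiment the medians were -0.17 and -0.24, with 2 higher and 3 lower past 2-fold under LPS and 3 and 3 under IL-4+anti-CD40. Genes of ER-associated degradation, the best known task of the NPL4-p97 complex, were mixed. Under LPS 10 of 20 were higher and 7 lower (median 0.066), and under IL-4+anti-CD40 5 were higher and 4 lower (median 0.039). Scaled by total counts there were 7 higher and 9 lower under LPS and 5 and 8 under IL-4+anti-CD40, with medians of -0.14 and -0.11. Ube2g2, a ubiquitin-conjugating enzyme, rose by 1.24 and 0.99, Herpud1 rose by 0.77 under LPS, and Edem1 by 0.81 under IL-4+anti-CD40. Edem2, which trims mannose from misfolded glycoproteins, fell by 1.08 and 0.75, Os9 fell by 0.67 under LPS, and Sel1l fell by 0.47 under IL-4+anti-CD40.

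**Figure D4:**
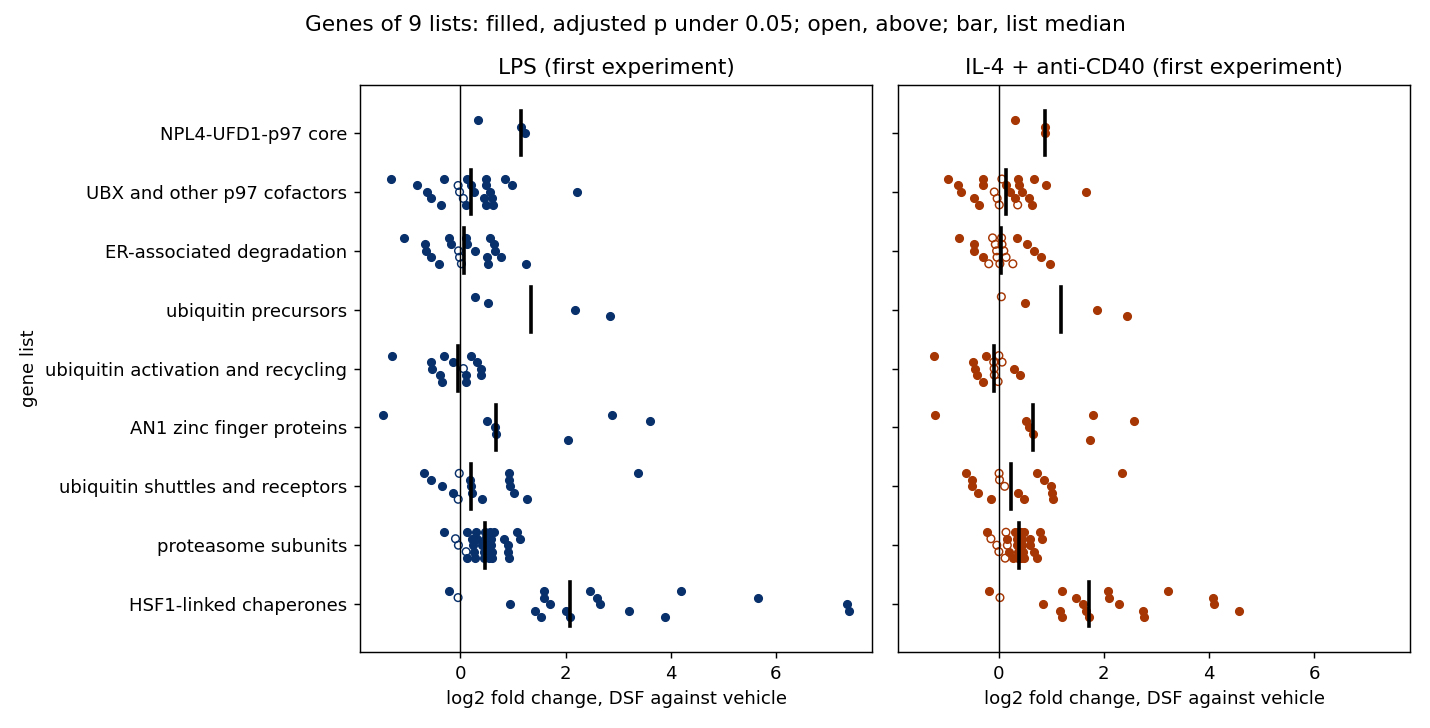
Log2 fold change with DSF against vehicle (horizontal axes) of each gene tested in 9 gene lists (vertical axis), under LPS on the left and IL-4+anti-CD40 on the right. Filled points have an adjusted p under 0.05 and bars are list medians. The chaperone list has the highest median (2.08 and 1.73), and the cofactor and ER-associated degradation lists lie on both sides of 0.

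Of the 4 ubiquitin precursor genes, all were higher under LPS (median 1.35) and 3 under IL-4+anti-CD40 (median 1.18). The 14 genes of ubiquitin activation and recycling had medians of -0.039 and -0.090, with 6 higher and 7 lower under LPS and 2 and 6 under IL-4+anti-CD40. Scaled by total counts, 3 were higher and 10 lower under LPS and 2 and 10 under IL-4+anti-CD40. Uchl3, which releases ubiquitin from small adducts, fell by 1.31 and 1.24, and Uchl5 by 0.55 and 0.49, while the deubiquitinases Usp15 and Otud5 rose by 0.40 and 0.39 under LPS and by 0.29 and 0.40 under IL-4+anti-CD40. Of the 7 AN1 zinc finger genes, 6 rose and Zfand1 fell under both stimuli, with medians of 0.68 and 0.65. After Zfand2a stood Zfand4, at 2.89 ± 0.27 under LPS, and Zfand5, which binds the proteasome, at 1.80 ± 0.15 under IL-4+anti-CD40. Zfand1 fell by 1.47 and 1.21.

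Of 16 ubiquitin shuttles and receptors, 10 were higher and 4 lower under LPS (median 0.20), and 8 higher and 5 lower under IL-4+anti-CD40 (median 0.24). With total counts these were 7 and 6 (median -0.0060), and 8 and 6 (median 0.089). Sqstm1, the autophagy receptor p62, rose by 3.38 ± 0.052 and 2.34 ± 0.29, and Ubqln1, which carries ubiquitinated proteins to the proteasome, by 1.26 and 1.04. Ubl4a fell by 0.70 under LPS, and Ddi2 fell by 0.51 under IL-4+anti-CD40. Of 32 proteasome subunit genes, 28 were higher and 1 lower under LPS (median 0.47), and 25 higher and 1 lower under IL-4+anti-CD40 (median 0.38). Scaled by total counts there were 21 higher and 3 lower, and 22 and 3. Psmd1 and Psmc2, of the regulatory particle, rose by 1.13 and 1.07 under LPS, and Psmc2 and Psmc6 by 0.82 and 0.79 under IL-4+anti-CD40, whereas Psmd6 fell by 0.32 and 0.23. Some shuttle genes, such as Adrm1 and Psmd4, stand also in the proteasome list. In the second experiment the medians of the proteasome list were -0.25 and -0.22, with 1 subunit 2-fold higher in each stimulus and 3 and 1 2-fold lower.

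The list of chaperones linked to heat shock factor 1, which also holds the factor genes Hsf1 and Hsf2, had the highest median of the 9 lists in both DSF comparisons. Of 19 tested, 17 were higher and 1 lower under each stimulus, with medians of 2.08 and 1.73, and in the second experiment 16 of 19 were 2-fold higher under each stimulus, with medians of 2.40 and 2.32. Hspa1a and Hspa1b, near-identical copies whose reads cannot be fully told apart, rose by 7.35 and 7.39 under LPS and by 4.08 ± 0.95 and 4.09 ± 0.97 under IL-4+anti-CD40. Hspb1 rose by 4.57 under IL-4+anti-CD40. Hsf2 fell by 0.21 under LPS, and Hsf1, encoding the factor itself, fell by 0.18 under IL-4+anti-CD40 and had a value of -0.044 under LPS (adjusted p = 0.451). With ibrutinib, the 19 genes of this list had medians of -0.11 and -0.13.

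Across the 20 libraries of the first experiment, Nploc4 and Vcp were the 2 members most alike, with a Pearson r of 0.994 between their log2 levels. Ubb and Zfand2a followed at 0.973, Nploc4 and Zfand2a were at 0.949, and Nsfl1c was at 0.532 with Ubb. Faf1 was at 0.40 or less with every other member. All points share the same 5 groups, so that these values describe the group pattern. The 3 genes closest to each member among 15574 others were Sgpl1 (0.995), Mafg (0.995) and Slc3a2 (0.994) for Nploc4, and 2900097C17Rik (0.995), Mafg (0.995) and Nploc4 itself (0.994) for Vcp. For Ubb they were Dnajb1 (0.994), the sequence-sharing Gm1821 (0.992) and Wdr1 (0.991), and for Zfand2a they were Zbtb2, Fam167a and Efr3b (0.993 each). Nsfl1c was closest to Hspa9 (0.992), Cct3 (0.989) and Insig1 (0.988). For Faf1 they were Syn3 (0.809), Gm13140 (0.787) and Crnkl1 (0.750).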

How the data were processed

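The authors trimmed the reads, mapped them to mm10 with HISAT2 2.0.5 and counted them on genes with featureCounts 1.5.0-p3, per the labels and the paper's methods. They deposited raw counts per gene, without normalization, and the FPKM computed from them, whose library scaling was 0.961 to 1.02 times that of TMM for the 20 libraries of the first experiment and 0.991 to 1.01 times for the other 7. Whether the libraries kept the strand, the strand setting of the counting and annotation release are not given in the sources used here.

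Counts of 20 libraries in 5 groups were compared with edgeR 4.0.16 (TMM, filterByExpr, quasi-likelihood test) in R 4.3.3, with 8 libraries for each comparison and 16 for the interaction, and Benjamini-Hochberg adjustment over all genes tested at 0.05. The script was tested on simulated data. The unreplicated libraries were scaled by TMM and compared as log2 ratios (prior count 2, mean of at least 10 counts), with 2-fold as the limit and no p-value. FPKM served for levels and overlap only. Counting intervals cover counting error only.

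Alternatives were DESeq2 1.42.0, other scalings and filters, one fit of all libraries, a replicate block, a minimum log2 fold change of 1, FPKM with 0.1 or 1 added, and leaving out libraries. Leaving out pairs of libraries was chosen after seeing the data. Same-numbered libraries deviated together with r from -0.056 to 0.17 and were not taken as pairs.

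The members and the 9 gene lists and 6 marker lists were chosen with earlier results of these data known. Besides the members, up to 2 rises and 2 falls of each list were named for each DSF comparison, and the 3 genes nearest to each member. Some genes named by this rule are not reported here. Promoters were read from RefSeq windows (GRCm38.p6), and shared sequence from GENCODE vM21 transcripts.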

Additional observations from a re-analysis of the deposited data

Results flagged for a closer look

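Of 30 sets of 4 libraries (6 genes in 5 groups), 2 had a library far from the other 3, where chance gives about 1 in 20. For Nploc4 with LPS, library 3 was at 25.5 FPKM beside 24.6 to 24.7, and its gap was 0.929 of the range. For Zfand2a with LPS and DSF, library 2 was at 71.6 FPKM beside 77.7 to 78.5, with a gap of 0.886 of the range.

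The interaction term of edgeR's quasi-likelihood test was past the threshold for Vcp (-0.35 on the log2 scale, adjusted p = 0.0148) and Zfand2a (-1.02, adjusted p = 0.0106). Among all genes, 7.92% had a negative interaction past it. Within each stimulus, all 4 DSF libraries were above all 4 vehicle libraries for both genes. Of all genes, 64.4% had no overlap in either direction under LPS and 57.3% under IL-4+anti-CD40. Without the IL-4+anti-CD40 vehicle libraries 3 and 4 the interactions of Vcp and Zfand2a were -0.21 (adjusted p = 0.0534) and -0.44 (adjusted p = 0.00159). With all 20 libraries in one fit that of Vcp was -0.28 (adjusted p = 0.425).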

How the results depend on the processing

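The rises of Zfand2a, Ubb, Nploc4 and Vcp with DSF in the first experiment kept their direction under every alternative run, and their calls under all but a minimum log2 fold change of 1, which ended those of Nploc4 and Vcp under IL-4+anti-CD40. With that minimum 2 members were higher with DSF in IL-4+anti-CD40, and 0 were called for either stimulus alone, for LPS against IL-4+anti-CD40 and for the interaction. Among all genes, 530 of 14275 were then higher and 187 lower with DSF in IL-4+anti-CD40. For LPS alone 850 were higher and 1026 lower, and for IL-4+anti-CD40 alone 835 and 1311. For LPS against IL-4+anti-CD40 these counts were 747 and 245, and for the interaction 8 and 5. Scaling by total counts put the median log2 fold change of all genes at -0.21 and -0.16 in the DSF comparisons, -0.27 and -0.19 under LPS and IL-4+anti-CD40 alone, -0.43 and -0.31 for the DSF groups against unstimulated B cells and -0.14 for LPS against IL-4+anti-CD40. All-gene calls with DSF were then 3473 higher and 6680 lower under LPS (4966 and 5096 with TMM), and 3262 and 5832 under IL-4+anti-CD40 (4301 and 4514). They were 2903 and 6387 for LPS alone, 3454 and 5574 for IL-4+anti-CD40 alone, 3151 and 7453 and 3117 and 6760 for the DSF groups against unstimulated B cells, 2428 and 4712 for LPS against IL-4+anti-CD40, and 1423 and 826 for the interaction, which the fit of all 20 libraries put at 710 and 205. In the second experiment, total counts gave 2199 and 3962 under LPS and DSF and 2527 and 3802 under IL-4+anti-CD40 and DSF, and a minimum mean of 50 counts gave 73 and 97, and 83 and 74, with ibrutinib.

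With total counts 1 member, Ubb, was lower under LPS alone and 1 was higher. With the same scaling Faf1 was lower in both DSF comparisons and in both DSF groups against unstimulated B cells. Nsfl1c was then at -0.0034 with DSF in LPS and -0.089 in IL-4+anti-CD40. Faf1 was at -0.077 under LPS, -0.021 under IL-4+anti-CD40, -0.33 and -0.25 in the DSF groups against unstimulated B cells, -0.056 for LPS against IL-4+anti-CD40 and 0.020 for the interaction, and Zfand2a was at -0.17 under LPS. Without a count filter Faf1 was at -0.00033 for IL-4+anti-CD40 and DSF against unstimulated B cells. With all 20 libraries in one fit, 2 members were lower under LPS against IL-4+anti-CD40, 1 had a lower interaction and that of Faf1 was 0.039. Among all 15575 genes of that fit, 2094 were lower and 2774 higher for LPS against IL-4+anti-CD40. For the interaction these counts were 205 and 710. The causes were not tested.

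Leaving out 1 library gave 2 to 4 members higher under LPS, -0.00020 to 0.17 for Zfand2a under LPS and -0.075 to 0.0092 for the interaction of Faf1. Among all genes, 3923 to 4449 of 14645 to 14868 tested were then higher under LPS. Without unstimulated libraries 3 and 4, Ubb was at 0.036 and Zfand2a at -0.10 under LPS, and Faf1 at -0.017 and -0.036 in the DSF groups against unstimulated B cells. Without unstimulated libraries 1 and 2, 5 members were higher and 1, Ubb, was lower under LPS. Among all 15229 genes tested, 5618 were then higher and 5902 lower. Ubb was at -0.0062 under IL-4+anti-CD40 without these libraries. The interaction was lower for 1 member without the IL-4+anti-CD40 libraries 3 and 4, and for 4 without libraries 1 and 2, where that of Faf1 was 0.0024. Among all genes it was lower for 1409 and higher for 1465 of 15778 without libraries 3 and 4. Without libraries 1 and 2 it was lower for 1692 and higher for 1461 of 15783.

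With a replicate block, the call of Faf1 under LPS was lost (0.15, adjusted p = 0.107), and Ubb was called for LPS against IL-4+anti-CD40 (-0.24, adjusted p = 0.020) and for the interaction (-0.31, adjusted p = 0.0246). No other call of a member changed with the block. These p-values are from edgeR's quasi-likelihood test. In the second experiment every member had 459 or more counts in each library, and there were no replicates.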
